A study of Homo sapiens with 38 samples.

Results

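The genes described here drive DNA replication and mitosis. They are 44 genes of the 60252 gene IDs in the expression tables, taken by matching a list of gene symbols to Ensembl IDs, and all 44 were found. The list holds 18 genes whose mRNA peaks around S phase, 25 genes of G2 and mitosis, and thymidine kinase TK1, which entered neither score. The S-phase score of a library is the mean log2(TPM + 1) over the 18 genes, and the G2/M score is the same mean over the 25. TPM is a transcript share corrected for length and scaled to the same total in every library. On this scale a difference of 1 is a doubling of the typical gene.

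A dividing cell loads the MCM helicase onto its origins with CDC6 and CDT1, fires it with CDC45 and the GINS complex, and copies DNA around the PCNA clamp. E2F factors switch these genes on once cyclin E and CDK activity have inactivated the RB proteins. Mitotic genes follow later, when a complex that binds CHR elements, together with NF-Y at CCAAT boxes and FOXM1, turns from repression to activation. Levels of both groups in bulk RNA follow how many cells are in each phase, and fewer cycling cells and less RNA per cell cannot be told apart in these data.

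RNA-seq came from 36 libraries of cultured prostate cells. RWPE-1 is a basal-like line from normal prostate epithelium, immortalized with a papillomavirus, and C4-2B, a cancer line of the LNCaP lineage, is tetraploid according to the labels. The RWPE-1 groups were 7 libraries that lack the 7p15.2 region, which carries prostate cancer risk variants, against 5 wild-type controls of the same editing experiment (editing controls), and 3 libraries transfected with a HOXA13 vector against 3 transfected with an eGFP plasmid. The transfected cells were collected 48 hours later as the top 10% of the eGFP signal, from 3 flasks per plasmid. The C4-2B groups were 3 full-deletion clones (m, le5 and ld9) against 3 control lines, with 3 libraries each. The 3 clones descend from a pair of partly edited colonies, and which clone came from which is not stated in the labels. For the edited RWPE-1 libraries the labels do not name separate clones or cultures, so p-values measure the spread between libraries.

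Libraries held 13661 to 15256 genes at 1 TPM or more, and the 44 genes together took 0.280% to 0.532% of all TPM. HOXA13 stood at 684 to 842 TPM in libraries with its vector and at 1.79 to 3.77 TPM with eGFP, and averaged 8.03 ± 1.63 TPM in RWPE-1 deletion libraries and 1.16 ± 0.709 TPM in their controls (SD, n = 7 and 5). KRT5, a basal keratin, was at 2540 TPM or more in every RWPE-1 library and at 0.14 TPM or less in C4-2B, where KLK3, a luminal secretory protein, was at 958 TPM or more. Library 1 of C4-2B control line 3 stood apart: mitochondrial genes took 28.4% of its TPM, against 10.8% to 16.6% in the remaining C4-2B controls, and its S-phase score of 5.69 was the lowest of the 18 libraries of that line. The main C4-2B results are given with and without it.

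Promoters of the 2 gene groups differed in E2F and CHR matches and shared CCAAT matches, and 4 of them are shown to make this visible. RefSeq promoters (GRCh38.p14, 250 bases before to 50 bases after the start) were matched for 35 of the 44 genes. The E2F motif was searched as TTTCCCGC, TTTCGCGC, TTTGCCGC and TTTGGCGC, the CHR as TTTGAA and TTTAAA, and the NF-Y box as CCAAT, all on both strands. An E2F match was present in 11 of 15 S-phase promoters (73.3%) and in 2 of 19 G2/M promoters (10.5%), against 3.31% of all 35116 promoters. A CHR match was present in 15 of 19 G2/M promoters (78.9%) and 3 of 15 S-phase promoters (20%), against 24% of all. CCAAT was common in both, in 16 of 19 G2/M promoters (84.2%) and 11 of 15 S-phase promoters (73.3%), against 34.6% of all. Both a CHR and a CCAAT match were present in 13 of 19 G2/M promoters (68.4%) and in 2 of 15 S-phase promoters (13.3%), against 9.27% of all promoters. A match is a run of letters and not a site of binding. Matches of different motifs overlapped in 1 pair of E2F and CCAAT and in 1 pair of CHR and CCAAT among these promoters, and 3 pairs of E2F matches overlapped each other. The 240 bases shown run from 220 bases before to 20 bases after the start, 5′ to 3′ on the gene's strand, with motif matches in capitals: CDC6 (chr17:40287659-40287898, plus strand), the member with the lowest p in the RWPE-1 deletion; MCM6 (chr2:135876424-135876663, minus strand), with the most E2F matches; and CDC25C (chr5:138338336-138338575, minus strand) and KIF20A (chr5:138178892-138179131, plus strand), 2 G2/M genes that were lower in the RWPE-1 deletion.
CDC6 promoter: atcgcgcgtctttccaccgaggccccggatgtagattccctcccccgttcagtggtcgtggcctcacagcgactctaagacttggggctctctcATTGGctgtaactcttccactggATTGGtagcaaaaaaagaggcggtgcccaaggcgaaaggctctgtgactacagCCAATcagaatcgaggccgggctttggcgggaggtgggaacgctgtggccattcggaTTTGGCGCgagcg
MCM6 promoter: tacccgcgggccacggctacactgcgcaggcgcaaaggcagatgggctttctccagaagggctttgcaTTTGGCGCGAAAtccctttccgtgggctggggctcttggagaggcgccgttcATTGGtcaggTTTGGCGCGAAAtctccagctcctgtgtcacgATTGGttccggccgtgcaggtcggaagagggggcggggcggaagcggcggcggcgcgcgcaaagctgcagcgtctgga
CDC25C promoter: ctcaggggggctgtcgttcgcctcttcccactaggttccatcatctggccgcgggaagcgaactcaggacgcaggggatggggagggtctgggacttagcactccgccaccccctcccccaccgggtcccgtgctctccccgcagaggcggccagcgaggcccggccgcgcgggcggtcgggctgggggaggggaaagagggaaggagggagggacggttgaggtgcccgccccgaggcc
KIF20A promoter: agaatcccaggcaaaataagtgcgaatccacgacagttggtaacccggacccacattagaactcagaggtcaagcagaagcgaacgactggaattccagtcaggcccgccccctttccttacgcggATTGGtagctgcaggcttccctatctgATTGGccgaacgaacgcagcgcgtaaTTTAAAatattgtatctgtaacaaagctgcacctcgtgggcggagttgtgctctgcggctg
CDC6 has its E2F match just after the start and 3 CCAAT matches before it. MCM6 has 4 E2F matches in 2 pairs, and the matches of a pair overlap on opposite strands. KIF20A has a CHR match downstream of 2 CCAAT matches, and the CDC25C window shown, the first of several RefSeq starts, holds none of the 3 motifs.

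In RWPE-1 libraries with the risk region deleted, 16 of 18 S-phase genes had log2 fold changes above 0, most of them small and not called, and 19 of 25 G2/M genes did. CDC6, which loads the MCM helicase, and CDC45, which activates it, were higher in deletion libraries, while CDC25C, the phosphatase that switches on CDK1, and KIF20A, a kinesin of cytokinesis, were lower. Calls rest on limma p-values with Benjamini-Hochberg adjustment over all genes, at a threshold of 0.05, and 2 of 44 genes rose and 2 fell. Across all 14186 genes tested, 10.3% were called, 6.46% higher and 3.86% lower, so the share of these genes called (9.09%) was close to that of all genes. The groups did not overlap for 1 gene above and 1 below, against 4.24% and 2.47% of all genes tested.

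CDC6 (ENSG00000094804, chromosome 17) had a lowest, median and highest value of 40.6, 45.5 and 48.6 TPM in deletion libraries, against 33.4, 33.6, 39.5, 37.0 and 35.9 TPM in editing controls 1 to 5. Every deletion library was above every control. The log2 fold change was 0.30 ± 0.0621 (SE), with a limma adjusted p of 0.00904.

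CDC45 (ENSG00000093009, chromosome 22) had a lowest, median and highest value of 43.2, 53.2 and 56.8 TPM in deletion libraries, against 32.3, 26.5, 48.2, 26.9 and 41.9 TPM in the controls. Controls 2 and 4 were the lowest and control 3 lay within the deletion range. Its log2 fold change was 0.59 ± 0.140 (SE; limma adjusted p = 0.0190). Other genes of its arm, 22q, had a median deviation from the control mean of 0.04 to 0.19 on the log2 scale in deletion libraries, against -0.31 in control 4 and 0.03 to 0.11 in the other controls. MCM5, a helicase subunit on the same arm, was at 121 to 149 TPM in deletion libraries, against 85.3 TPM in control 4 and 112 to 130 TPM in the other controls. CDC45 stayed called with each library left out in turn, control 4 included, with a limma adjusted p of 0.00321 to 0.0478.

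CDC25C (ENSG00000158402, chromosome 5) had a lowest, median and highest value of 8.61, 10.4 and 10.9 TPM in deletion libraries, against 11.1, 11.4, 18.6, 15.97 and 20.9 TPM in the controls. All deletion libraries were below all controls, though controls 1 and 2 were only just above them. The log2 fold change was -0.56 ± 0.142 (SE; limma adjusted p = 0.0258). KIF20A (ENSG00000112984, chromosome 5) had a lowest, median and highest value of 42.0, 47.9 and 56.1 TPM in deletion libraries, against 52.5, 52.3, 79.9, 69.5 and 76.3 TPM in the controls. Its ranges overlapped at controls 1 and 2, and its log2 fold change was -0.42 ± 0.116 (SE; limma adjusted p = 0.0363). KIF20A lost its call when any one of deletion libraries 1, 2, 3, 5 or 7 or controls 3, 4 or 5 was left out, and CDC25C when deletion library 1 or control 4 or 5 was, with adjusted p-values of up to 0.0762 and 0.0515.

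The 2 genes that fell lie on the long arm of chromosome 5, as does CCNB1, the cyclin partner of CDK1. Of 492 genes tested on 5q, 306 were called lower and 5 higher, and their median log2 fold change was -0.41. The median of the arm's other genes was between -0.45 and -0.36 in each of the 7 deletion libraries, against -0.06 to 0.05 in the controls. CCNB1 had a log2 fold change of -0.44 ± 0.153 (SE), close to the arm's median, with a limma adjusted p of 0.0843. It had a lowest, median and highest value of 180, 207 and 215 TPM in deletion libraries, against 219, 186, 391, 276 and 344 TPM in the controls. Among 51 other mitotic genes, the 2 called lower, PTTG1 (securin) at -0.58 and CENPK (a kinetochore protein) at -0.41, are on 5q as well. Without the 5q genes the median log2 fold change of the 22 remaining G2/M genes was 0.13, and 19 of them were above 0. The part of the arm's level in the lower values of CDC25C, KIF20A and CCNB1 was not tested. In the scatter of the 44 genes against their arms, the 3 genes on 5q stand by themselves at the lower left.

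**Figure D1:**
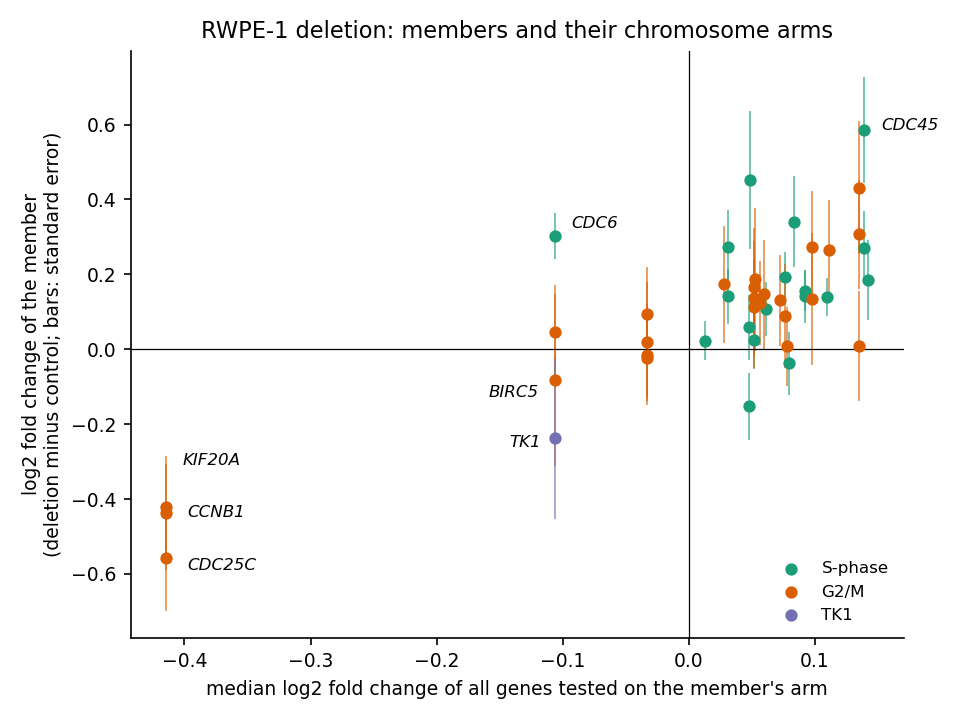
Log2 fold change of each of the 44 genes in the RWPE-1 deletion (y axis, deletion minus control, bars are standard errors) against the median log2 fold change of all genes tested on the same chromosome arm (x axis). CDC25C, KIF20A and CCNB1 sit near their arm's median of -0.41, while CDC6 sits at 0.30 on an arm with a median of -0.11.

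On the scale of the scores, the S-phase genes stood at 6.25 ± 0.0438 in deletion libraries and 6.07 ± 0.0774 in controls (SD, n = 7 and 5), a difference of 0.18. The lowest deletion library, at 6.19, was above the highest control, at 6.13. Single genes moved little: 16 of the 18 were above 0, their median log2 fold change was 0.15 against 0.05 over all genes tested, and 7 further genes had an unadjusted p under 0.05 without being called, 9 of 18 in all, against 3960 of the 14186 genes tested. Over all genes 8763 of 14186 were above 0. After median-ratio scaling the difference in score was 0.13. The G2/M score was 6.34 ± 0.10 in deletion libraries and 6.28 ± 0.352 in controls (SD, n = 7 and 5). Its control values were 5.95, 5.91, 6.71, 6.32 and 6.53 in controls 1 to 5, so controls 1 and 2 lay below every deletion library and controls 3 and 5 above every one.

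TK1, which salvages thymidine and peaks in S phase, showed the same split of the controls. TK1 had a lowest, median and highest value of 48.0, 54.0 and 66.7 TPM in deletion libraries, against 41.8 and 38.4 TPM in controls 1 and 2 and 95.9, 81.2 and 89.7 TPM in controls 3 to 5, so that all deletion libraries lay between the 2 sets of controls. BIRC5 (survivin), a G2/M gene on the same arm, 17q, was likewise at 64.8 to 79.5 TPM in deletion libraries, against 45.1 and 46.2 TPM in controls 1 and 2 and 87.5 to 123 TPM in controls 3 to 5. The median deviation of other 17q genes was -0.17 to -0.04 in deletion libraries, against -0.11 and -0.18 in controls 1 and 2 and 0.09 to 0.16 in controls 3 to 5. Neither gene was called, with log2 fold changes of -0.24 for TK1 and -0.08 for BIRC5. CDC6, also on 17q, was at 33.4 and 33.6 TPM in controls 1 and 2. It was at 39.5, 37.0 and 35.9 TPM in controls 3 to 5, and every deletion library was above all of these.

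Deletion library 4 differed from the other 6 in both directions. CDK1, the kinase that starts mitosis, was at 204 TPM there and at 101 to 123 TPM in the other deletion libraries. The proliferation antigen MKI67 was at 130 TPM against 75.7 to 94.7 TPM, and the spindle kinesin KIF11 at 79.0 TPM against 42.2 to 54.9 TPM. All 3 lie on 10q, where the median of the other genes was 0.56 on the log2 scale in that library, against 0.04 to 0.11 in the other deletion libraries and -0.07 to 0.04 in controls. CCNB2, KIF23 and BUB1B, a mitotic cyclin, a kinesin of the midbody and a spindle checkpoint kinase, all on 15q, were lowest in that library, at 64.2, 66.7 and 69.1 TPM, against lowest values of 82.8, 84.2 and 79.3 TPM in the other deletion libraries. The 15q median was -0.47 in it, against -0.03 to 0.11 in the others. NUSAP1, the fourth 15q gene, was at 138 TPM, within the others' 133 to 172 TPM. These arms were looked at after the values were seen, and how far the arm medians account for the genes was not tested. The plot by library shows 4 arms above 4 of their genes.

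**Figure D2:**
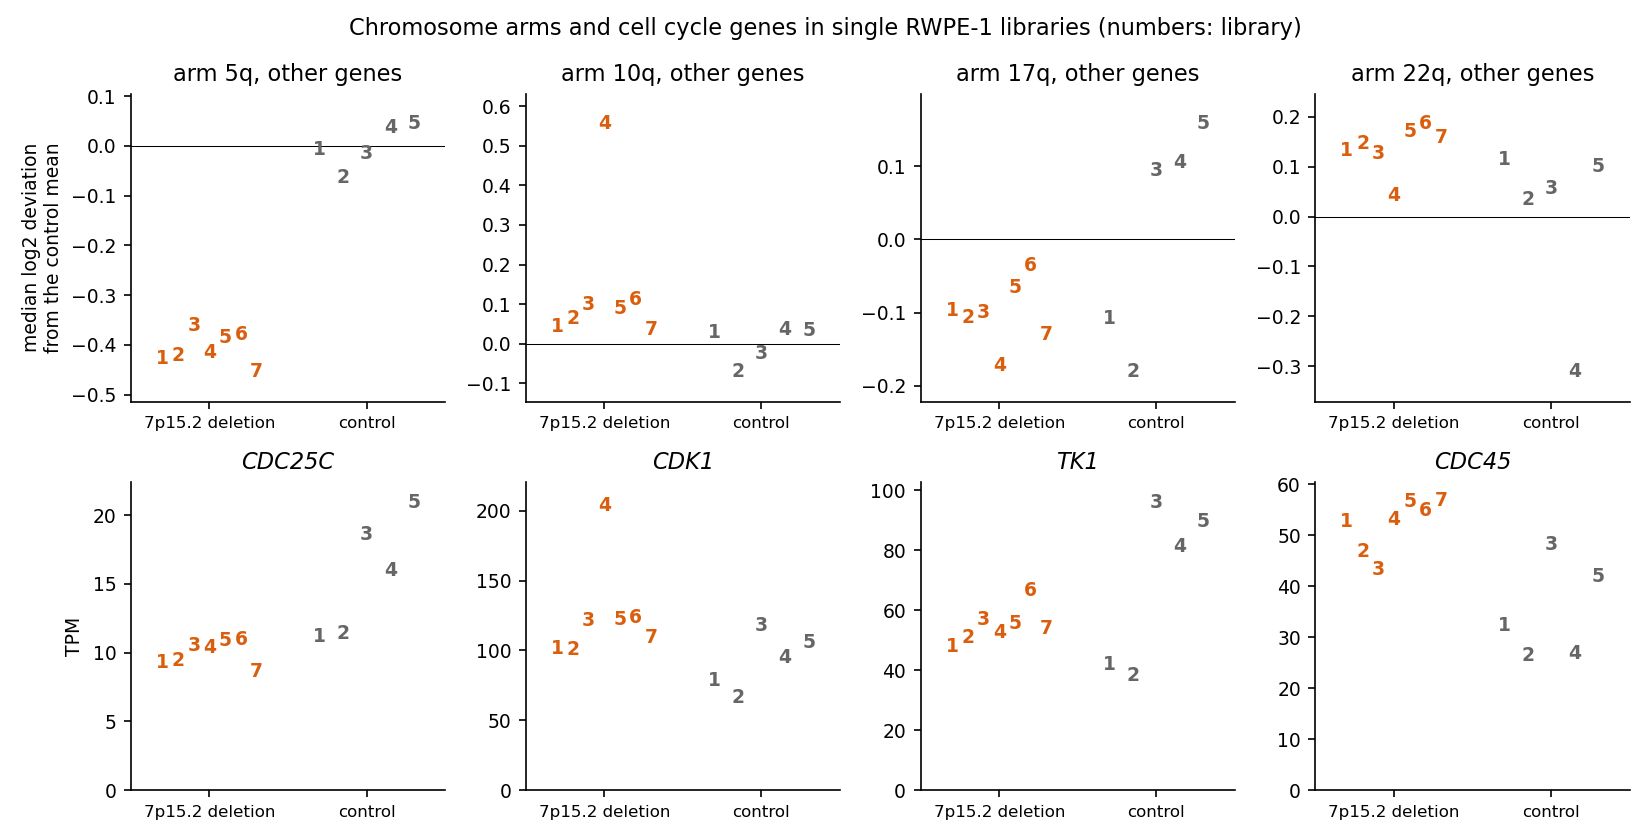
Top row, median log2 deviation of the arm's other tested genes from the mean of the editing controls for arms 5q, 10q, 17q and 22q; bottom row, TPM of CDC25C, CDK1, TK1 and CDC45, 1 from each of those arms. Each digit is a library, with deletion libraries 1 to 7 in orange at the left and controls 1 to 5 in grey. Library 4 of the deletion stands alone on 10q and for CDK1 (204 TPM), and control 4 stands alone on 22q at -0.31.

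Of the wider pathway, 35 other replication factors held 2 genes that rose and none that fell. MCM10, which helps to activate the helicase, was at 22.6 ± 0.831 TPM in deletion libraries and 18.1 ± 1.63 TPM in controls (SD, n = 7 and 5), a log2 fold change of 0.31 (limma adjusted p = 0.00777), and ORC1, of the origin recognition complex, rose by 0.23. Among 29 RB-E2F and CDK regulators, 2 rose and 1 fell. CDK6, a cyclin D kinase, was at 56.8 ± 3.86 TPM in deletion libraries and 39.1 ± 6.92 TPM in controls (SD, n = 7 and 5; log2 fold change 0.54, limma adjusted p = 0.00459), CDC25A, which activates CDK2, rose by 0.52, and the CDK inhibitor CDKN1C fell by 0.69. Of 51 other mitotic genes, NUF2 and MAD2L1, of the kinetochore and the spindle checkpoint, rose by 0.46 and 0.41, beside the 5q genes named above that fell. Of these lists 5.71%, 10.3% and 7.84% were called, in that order, so none exceeded the 10.3% of all genes tested.

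The authors' deposited table for the same comparison called 3122 of 17985 genes (17.4%) and among the 44 called CDC6 at 0.29, CDC45 at 0.41 and CCNE2 at 0.38 higher. In the authors' deposited table CDT1 at -0.18, CCNB1 at -0.51, CDC25C at -0.62 and KIF20A at -0.50 were lower. CCNE2, a cyclin E, had 0.27 in the limma fit, with an adjusted p of 0.101.

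Forced HOXA13 expression, set against the eGFP plasmid, asked what the factor itself changes. No gene of the 44 was called, and of 14814 genes tested 2 were called (0.0135%). At an unadjusted p under 0.05 stood 6 of the 44 and 2002 of all genes tested. The S-phase score was 6.00 ± 0.0434 with HOXA13 and 5.96 ± 0.0311 with eGFP, and the G2/M score 5.16 ± 0.180 with HOXA13 and 5.23 ± 0.128 with eGFP (SD, n = 3 each). Both differences were smaller than the SD of the HOXA13 libraries. HOXA13 library 1 had the highest G2/M score of its group, at 5.35, against 5.16 and 4.99 in libraries 2 and 3. Its luminal markers summed to 98.45 TPM, against 16.15 and 20.41 TPM in those 2. With 1 library left out, the G2/M difference ran from -0.16 (without HOXA13 library 1) to 0.02 (without HOXA13 library 3). The median log2 fold change of the 44 genes was 0.00, against 0.04 over all genes tested.

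The 4 genes with the lowest unadjusted p were CDK1, CDT1, KIF11 and TTK. CDK1 was at 23.8, 23.8 and 20.98 TPM with HOXA13, against 28.3, 31.3 and 32.7 TPM with eGFP, all below, with a log2 fold change of -0.41 and a limma adjusted p of 0.244. CDT1 was at 90.6, 94.7 and 89.3 TPM with HOXA13, against 76.2, 83.8 and 67.6 TPM with eGFP, all above (0.27, limma adjusted p = 0.294). KIF11 was at 12.7, 13.3 and 10.7 TPM with HOXA13, against 14.3, 15.4 and 18.5 TPM with eGFP (-0.37, limma adjusted p = 0.321). TTK, the checkpoint kinase MPS1, was at 17.4, 13.4 and 12.1 TPM with HOXA13, against 18.6, 17.98 and 19.4 TPM with eGFP (-0.38, limma adjusted p = 0.328). For all 4 the groups did not overlap, as was so for 3 genes above and 6 below among the 44, and for 12.4% and 8.68% of all genes tested. Of 51 other mitotic genes, none of them called, 1 was above and 14 were below without overlap, and 14 had an unadjusted p under 0.05. Of 35 other replication factors 2 were above and 5 below, and of 29 regulators 4 were above and 2 below. The authors' deposited table called CDK1 at -0.31, KIF11 at -0.34 and TTK at -0.44 lower, with 1487 of 12329 genes (12.1%) called in all.

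Sorted, eGFP-transfected cells stood in the comparison with the most genes called. Genes of G2 and mitosis were lower almost throughout, while S-phase genes split. Of 25 G2/M genes 22 fell and none rose, with a median log2 fold change of -1.13. Of 18 S-phase genes 6 fell and 4 rose, with a median of -0.21. Over all 15066 genes tested, 47.1% were called, 24.4% higher and 22.7% lower, and the median was 0.02. The groups did not overlap for 4 of the 44 above and 29 below, against 25.7% and 22.9% of all genes tested. Transfection, sorting and experiment differ together between these groups and cannot be told apart.

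BUB1B, a spindle checkpoint kinase, was at 21.4, 22.3 and 22.7 TPM in eGFP libraries, against 62.9, 75.8, 114, 82.5 and 103 TPM in editing controls, the lowest p of the list (log2 fold change -1.91 ± 0.179 SE, limma adjusted p = 8.43e-05). KIF20A, whose promoter is shown above, was at 18.2, 19.4 and 23.6 TPM in eGFP libraries, against 52.5, 52.3, 79.9, 69.5 and 76.3 TPM in controls (-1.64 ± 0.168 SE, limma adjusted p = 0.000136). The eGFP values of both genes were well under the lowest control.

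KIF11 was at 14.3, 15.4 and 18.5 TPM in eGFP libraries, against 36.5, 33.8, 51.1, 41.2 and 45.0 TPM in controls (-1.31 ± 0.145 SE, limma adjusted p = 0.000194). CDK1 was at 28.3, 31.3 and 32.7 TPM in eGFP libraries, against 78.4, 66.1, 118, 94.98 and 106 TPM in controls (-1.53 ± 0.177 SE, limma adjusted p = 0.000236). No eGFP library reached any control for either gene. CENPE, a kinetochore motor, was at 10.7, 12.4 and 15.9 TPM in eGFP libraries, against 33.3, 42.5, 64.6, 42.4 and 36 TPM in controls (-1.66 ± 0.212 SE, limma adjusted p = 0.000395). KIF23 was at 34.0, 37.5 and 37.1 TPM in eGFP libraries, against 69.4, 68.6, 107, 79.3 and 96.1 TPM in controls (-1.17 ± 0.154 SE, limma adjusted p = 0.000442). These 6 genes stayed called with each of the 8 libraries left out in turn, while AURKA, BIRC5 and UBE2C stayed called in 3, 4 and 4 of the 8 fits.

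The 3 G2/M genes not called were CDC20, the activator of the anaphase-promoting complex, FOXM1 and AURKB, a kinase of the chromosomal passenger complex. CDC20 was at 142, 151 and 160 TPM in eGFP libraries, against 147, 132, 354, 200 and 224 TPM in controls. FOXM1 was at 25.9, 29.4 and 29.6 TPM in eGFP libraries, against 28.6, 28.0, 47.7, 36.02 and 39.1 TPM in controls. Both overlapped controls 1 and 2, the controls with the lowest G2/M scores.

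CCNE1, CDT1, E2F1 and MCM7 rose. CCNE1, a cyclin E, was at 6.92, 6.27 and 7.70 TPM in eGFP libraries, against 3.63, 3.13, 3.46, 5.46 and 1.93 TPM in controls (0.86 ± 0.225 SE, limma adjusted p = 0.0131). CDT1 was at 76.2, 83.8 and 67.6 TPM in eGFP libraries, against 44.8, 43.7, 39.9, 52.1 and 50.7 TPM in controls (0.70 ± 0.110 SE, limma adjusted p = 0.00108). E2F1 was at 44.2, 41.2 and 45.5 TPM in eGFP libraries, against 29.2, 27.2, 30.1, 36.8 and 33.7 TPM in controls (0.47 ± 0.106 SE, limma adjusted p = 0.00668). The helicase subunit MCM7 was at 208, 226 and 202 TPM in eGFP libraries, against 184, 175, 174, 195 and 194 TPM in controls (0.20 ± 0.0709 SE, limma adjusted p = 0.0474), and lost its call in 6 of the 8 fits that left a library out. All eGFP libraries were above all controls for each of the 4 genes. On 19q, which holds CCNE1, the median log2 fold change of the arm was 0.27, and on 20q, which holds E2F1 and the G2/M genes AURKA, TPX2 and UBE2C, it was 0.22.

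Of those that fell, the S-phase group was led by GINS1, a subunit of the replicative helicase complex, at 21.4, 21.9 and 26.9 TPM in eGFP libraries, against 42.9, 37.4, 48.9, 42.8 and 50.6 TPM in controls (-0.90 ± 0.121 SE, limma adjusted p = 0.000507). RRM1, the large subunit of ribonucleotide reductase, was at 77.1, 86.0 and 91.0 TPM in eGFP libraries, against 123, 114, 139, 140 and 149 TPM in controls (-0.64 ± 0.105 SE, limma adjusted p = 0.00133). MCM6, CCNE2, PCNA and MCM3 fell by 0.46, 0.39, 0.29 and 0.22, and MCM3 and CCNE2 each stayed called in 5 of the 8 fits that left a library out, PCNA in 7. CDC6 was at 38.0, 37.7 and 31.7 TPM in eGFP libraries, against 33.4 to 39.5 TPM in controls, with 1 eGFP library below that range, and was not called.

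**Figure D3:**
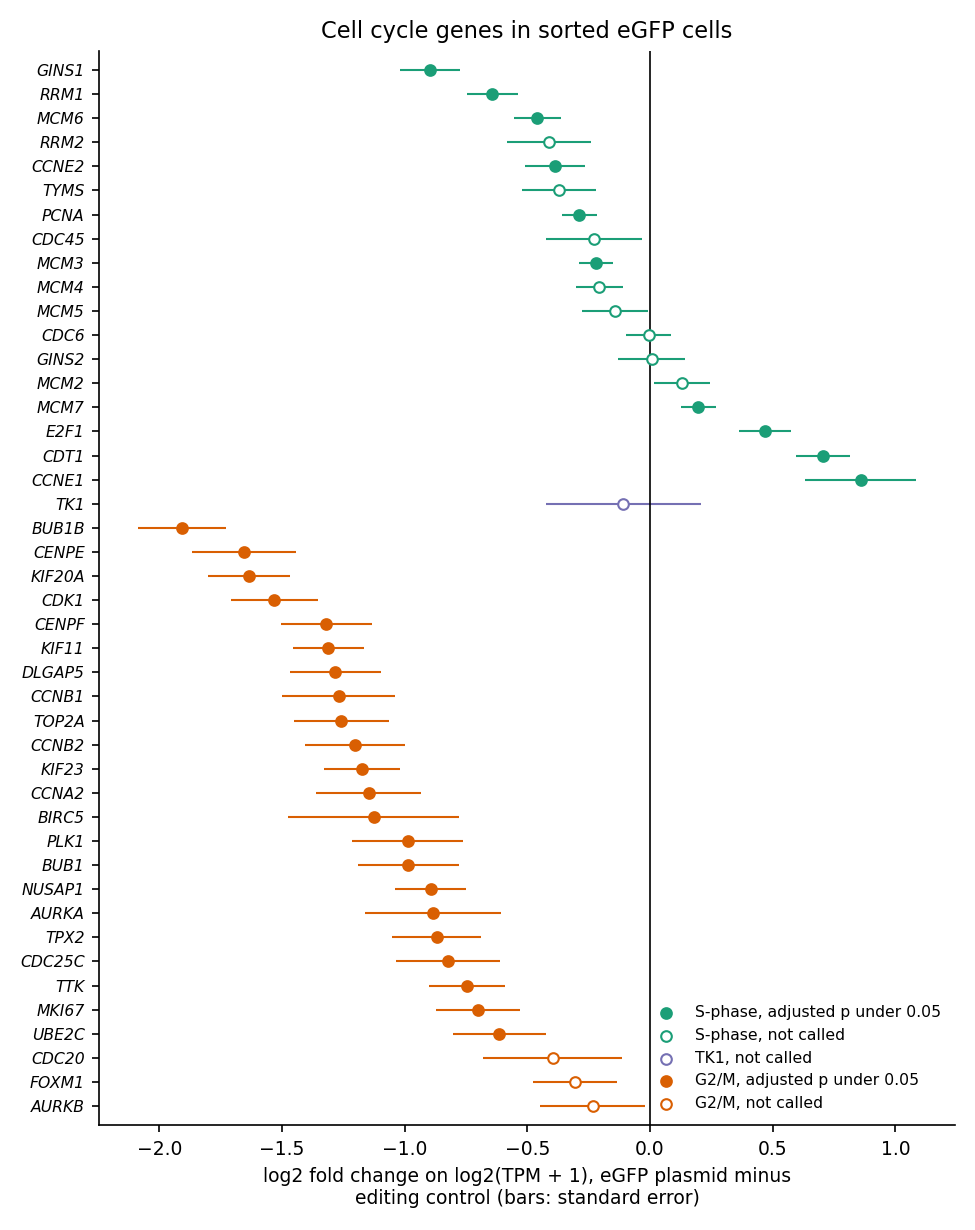
Log2 fold change with standard error of the 44 genes between sorted eGFP cells and editing controls (3 and 5 libraries), ordered within the S-phase genes, TK1 and the G2/M genes. Filled points passed a limma adjusted p of 0.05. All 25 G2/M genes lie below 0, from -1.91 for BUB1B to -0.23 for AURKB, and the S-phase genes span -0.90 to 0.86.

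In scores, the G2/M genes stood at 5.23 ± 0.128 in eGFP libraries and 6.28 ± 0.352 in editing controls (SD, n = 3 and 5), a difference of -1.05, and the S-phase genes at 5.96 ± 0.0311 in eGFP libraries and 6.07 ± 0.0774 in controls, a difference of -0.11. The S-phase score minus the G2/M score was 0.62 to 0.82 in the eGFP libraries and -0.58 to 0.08 in the controls. Libraries with the HOXA13 vector, from the same sort, were alike: each had 21 or 22 of the 25 G2/M genes below every editing control, as each eGFP library had 22 or 23, against 1 to 3 in each library of the deletion. The share over all genes was not computed for single libraries. For the eGFP libraries together, 22.9% of all genes tested lay below every editing control.

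**Figure D4:**
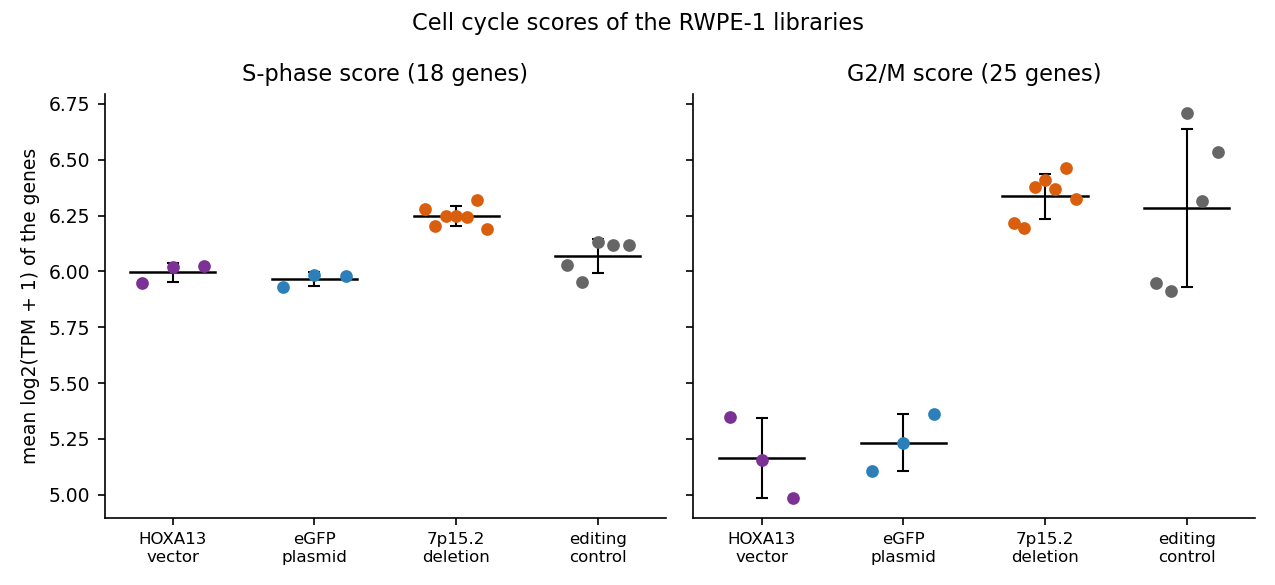
S-phase score (left) and G2/M score (right) of every RWPE-1 library, as the mean log2(TPM + 1) of the genes; points are libraries, lines are group means and bars are 1 SD. Both transfected groups lie between 4.99 and 5.36 on the G2/M score, under every other library, and the 7 deletion libraries lie above the 5 controls on the S-phase score.

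Of 51 other mitotic genes 45 fell and none rose (median -0.86). The lowest p-values were those of the condensin subunits SMC2 at -1.32 and SMC4 at -1.06, the kinetochore genes CENPK at -0.79 and NUF2 at -1.23, DEPDC1 at -2.04, and CKAP5, which promotes microtubule growth, at -0.89. Of 35 other replication factors 14 fell and 1 rose (median -0.21). The polymerase subunits POLA1 and POLE were at -0.78 and -0.62, TIMELESS, of the fork protection complex, at -0.64, the helicase subunit GINS4 at -0.89, and the nucleotide enzyme DUT at -0.62, while the polymerase subunit POLD1 rose by 0.41. Among 29 RB-E2F and CDK regulators 11 rose and 8 fell. Of the mitotic, replication and regulator lists 88.2%, 42.9% and 65.5% were called, against 47.1% of all genes tested. The CDK inhibitor CDKN1A (p21) was at 138 ± 2.14 TPM in eGFP libraries and 29.6 ± 8.48 TPM in controls (SD, n = 3 and 5; log2 fold change 2.22, limma adjusted p = 5.69e-05). The inhibitors CDKN2D, CDKN2B and CDKN1C rose by 1.296, 0.94 and 0.68, as did the cyclin CCND3 by 1.40 and E2F4 by 0.55. SKP2, of the ubiquitin ligase that removes CDK inhibitors, was at 31.9 ± 1.56 TPM in eGFP libraries and 65.8 ± 9.82 TPM in controls and fell by 1.01 on the log2 scale, with the phosphatase CDC25B at -0.65, the kinase CDK6 at -0.64, the RB relatives RBL1 and RBL2 at -0.53 and -0.52 and the ubiquitin ligase subunit FBXW7 at -0.46.

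Markers of cell type differed in this comparison. Of the basal markers, KRT5 and KRT15 were below every editing control in all eGFP libraries, while KRT14 and TP63 overlapped the controls. The 4 basal markers summed to 6086 to 6467 TPM in eGFP libraries and 8900 to 16583 TPM in editing controls, and the 4 immune markers to 135 to 159 TPM in eGFP libraries and 9.88 to 50.4 TPM in controls, nearly all of it CD68, a lysosomal protein, with the leukocyte marker PTPRC at 0 in all 8 libraries. Their part in the cell cycle genes was not tested. The 4 epithelial markers summed to 899 to 987 TPM in eGFP libraries and 331 to 699 TPM in controls. Among them EPCAM was at 14.9 to 19.5 TPM in eGFP libraries and 0.05 to 0.36 TPM in controls. CDH1 and KRT8 were also above every control, while KRT18 overlapped the controls. The luminal markers summed to 11.53 to 12.95 TPM in eGFP libraries and 1.55 to 7.83 TPM in controls. The fibroblast markers summed to 16.45 to 20.23 TPM in eGFP libraries and 2.86 to 8.70 TPM in controls. The part of these markers in the cell cycle genes was not tested either.

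In C4-2B, deletion of the same region gave no call among the 44 genes or among all 14820 genes tested (0%) by limma with the line as the replicate. Deletion lines may share a parent colony, which this fit does not allow for. On simulated data this fit found 37.5% of planted 2-fold changes, so modest changes could go uncalled. The rate was 94.5% for the RWPE-1 deletion. That simulation drew libraries as independent, while the C4-2B simulation added a spread between lines, so the 2 rates have unlike settings. At an unadjusted p under 0.05 stood 529 of all genes and 0 of the 44. The S-phase score was 6.17 ± 0.107 in deletion lines and 6.20 ± 0.153 in control lines, and the G2/M score 6.24 ± 0.0714 in deletion lines and 6.24 ± 0.158 in control lines (SD, n = 3 lines each). Lines did not overlap between the groups for 0 of the 44 genes in either direction, against 6.86% above and 2.68% below over all genes tested. Without library 1 of control line 3 these differences were -0.09 and 0.00, and no gene was called either. The median log2 fold change of the 44 was 0.01, against 0.07 over all genes.

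CDC45 had the lowest p of the 44 (log2 fold change -0.47, limma unadjusted p = 0.0508, adjusted p = 0.993), and its log2 fold change was -0.36 without library 1 of control line 3. CDC45 was at 71.9, 72.2 and 73.0 TPM in deletion line m, 44.9, 42.3 and 53.0 TPM in le5 and 48.4, 48.3 and 40.9 TPM in ld9, against 73.6 to 81.6 TPM in control line 1, 56.9 to 69.2 TPM in line 2 and 129, 69.5 and 65.4 TPM in line 3. Lines le5 and ld9 were low and line m lay with the controls. MCM5, the other gene on 22q, was at 103, 114 and 114 TPM in m, 61.0, 59.5 and 74.4 TPM in le5 and 69.4, 70.1 and 61.0 TPM in ld9, against 97.1 to 122 TPM in control lines 1 and 2 and 43.2, 109 and 111 TPM in line 3 (log2 fold change -0.33, limma adjusted p = 0.993, and -0.48 without that library). The median deviation of other 22q genes was -0.33 to -0.29 in le5 and -0.31 to -0.26 in ld9, against 0.08 to 0.12 in m and 0.11 to 0.17 in control lines 1 and 2. In control line 3 it was -0.83, -0.04 and 0.03. Library 1 of that line was low on other arms too, at -0.73 on 19q, -0.60 on 17q and -0.22 on 5q.

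CCNE2 (0.28) and MCM3 (0.23) came next, each with a limma adjusted p of 0.993. CCNE2 was at 24.3 to 28.0 TPM in m, 27.7 to 31.2 TPM in le5 and 29.4 to 32.9 TPM in ld9, against 29.2 to 32.0 TPM in control line 1 and 16.8 to 22.9 TPM in lines 2 and 3. MCM3 was at 73.3 to 89.5 TPM in all 3 deletion lines and 75.9 to 82.6 TPM in control lines 1 and 2, against 58.8, 50.4 and 57.4 TPM in line 3. Its arm, 6p, had a median of 0.20 in the comparison. In line 3 its median deviation was -0.77 in library 1, which was low on other arms too, and -0.31 and -0.21 in libraries 2 and 3. Both genes thus differed more among control lines than between deletion and control. The authors' deposited table called CDC45 at -0.38 lower and CCNE2 at 0.26 higher, with 1461 of 17075 genes (8.56%) called.

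Control lines of C4-2B differed from each other in many of these genes, by a limma F test over 18 libraries whose p-values cover only the spread between libraries of a line. It called 22 of the 44, 9 S-phase genes, 12 G2/M genes and TK1, against 35.7% of all 16225 genes. Without library 1 of control line 3 it called 32 of the 44, with none lost, and 19 to 32 with any 1 library left out. The lowest p was that of CCNA2, cyclin A, which works in both S phase and mitosis (limma adjusted p = 9.69e-08). CCNA2 was at 23.0, 22.7 and 21.8 TPM in line 3, against 48.6 to 49.3 TPM in line 1 and 41.2 to 46.0 TPM in line 2, and at 42.3 to 48.0 TPM in the 3 deletion lines. All libraries of line 3 were below every library of the other lines. On its arm, 4q, other genes had a median deviation of -0.34 to -0.31 in the 3 libraries of line 3, against 0.07 to 0.22 in the other 5 lines. CENPE, also on 4q, was at 142, 38.4 and 42.6 TPM in line 3, against 26.2 to 63.8 TPM in lines 1 and 2, and did not follow.

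MCM3, CCNB2, CCNE2, CCNB1 and CDK1 had the next lowest p-values. CDK1 was at 238, 274 and 319 TPM in control line 3, against 390 to 416 TPM in line 1 and 358 to 373 TPM in line 2 (limma adjusted p = 0.00119). CCNB1 was at 202, 246 and 284 TPM in line 3, against 353 to 399 TPM in lines 1 and 2 (limma adjusted p = 0.000718). CCNB2 was at 59.7, 73.2 and 76.7 TPM in line 3, against 98.7 to 101 TPM in line 1 and 99.7 to 103 TPM in line 2 (limma adjusted p = 0.000229). All libraries of line 3 were below those of lines 1 and 2 for these 3 cyclin and kinase genes. Median-ratio scaling left 14 of the 44 called, with 12 lost, CDK1 and MCM3 among them, and 4 gained, while CCNA2, CCNB1, CCNB2 and CCNE2 stayed called.

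Deletion lines differed in fewer genes. The same F test called 6 of the 44, against 5.50% of all genes: MCM4, NUSAP1, CDC6, CDK1, CDC25C and PCNA. PCNA was at 144, 150 and 163 TPM in m, 227, 207 and 227 TPM in le5 and 238, 233 and 221 TPM in ld9 (limma adjusted p = 0.0461), and CDK1 at 271, 324 and 323 TPM in m, 412, 396 and 395 TPM in le5 and 416, 416 and 389 TPM in ld9 (limma adjusted p = 0.0210). MCM4 ran the other way, at 314 to 359 TPM in m, 225 to 253 TPM in le5 and 227 to 264 TPM in ld9 (limma adjusted p = 0.00108). CDC6 did so too, at 103 to 108 TPM in m, 72.2 to 81.1 TPM in le5 and 74.9 to 84.4 TPM in ld9 (limma adjusted p = 0.0150). Line m stood apart in each of these 4, while le5 and ld9 overlapped. NUSAP1, a spindle protein, was at 246, 244 and 226 TPM in m, 155, 148 and 153 TPM in le5 and 179, 185 and 168 TPM in ld9, with no overlap between any of the lines (limma adjusted p = 0.0131). CDC25C was at 16.9, 16.3 and 16.9 TPM in m, 11.8, 11.4 and 12 TPM in le5 and 17.1, 14.9 and 14.4 TPM in ld9, with le5 apart (limma adjusted p = 0.0242). Without library 1 of control line 3 the test called 18 of the 44, CDC45 and MCM5 among those gained. Without library 1 of deletion line m it called 1. PCNA lost its call without the filter, with a replicate block, and with any library left out other than those of control line 3. CDC25C lost its call when any library of m or le5 was left out, and CDC6 when any library of m was. Median-ratio scaling lost CDC6 and NUSAP1 and gained 3 genes. MCM4 stayed called in every fit.

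**Figure D5:**
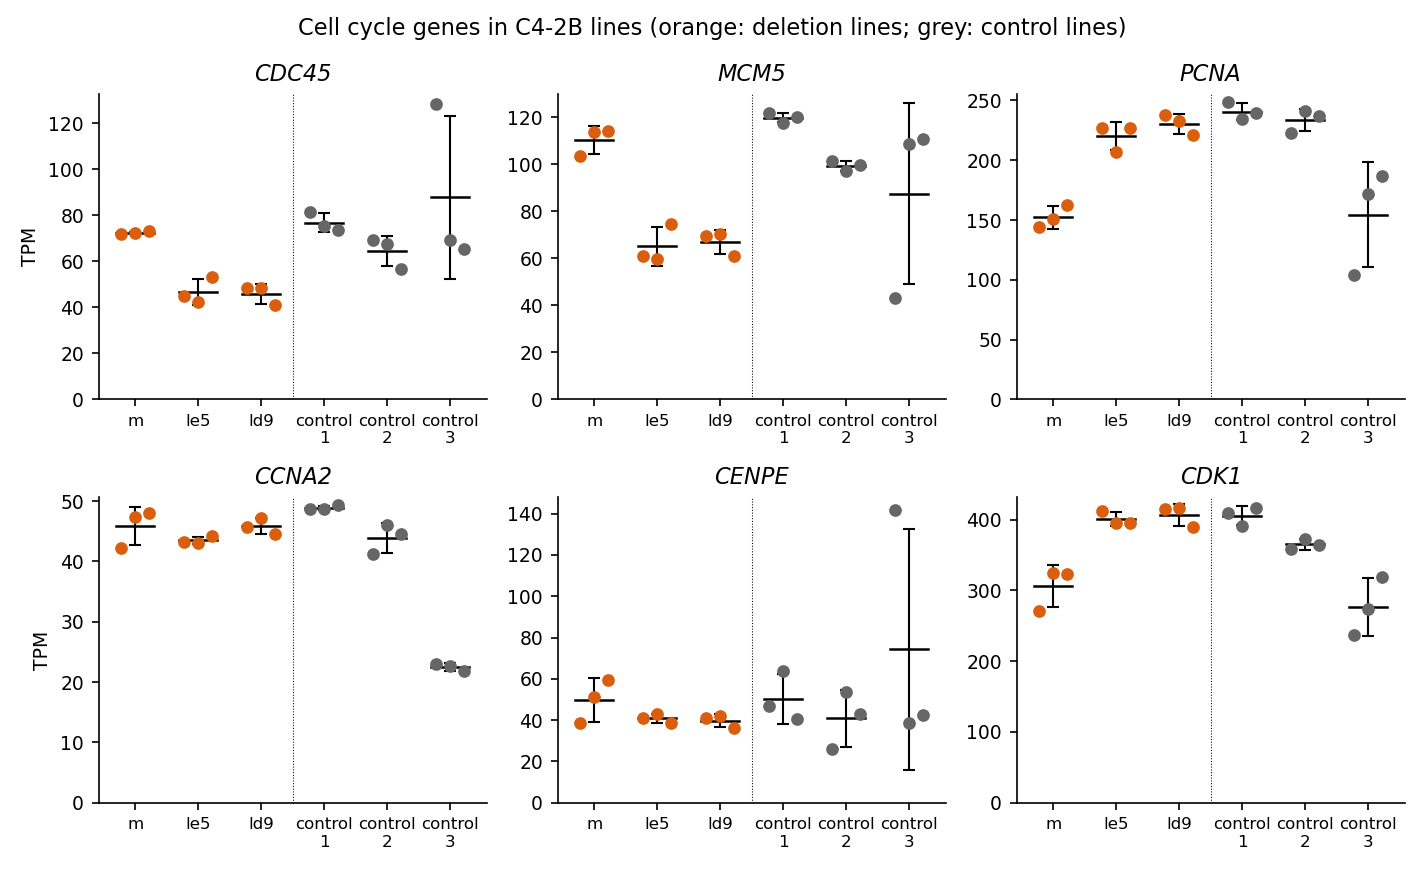
TPM of CDC45, MCM5, PCNA, CCNA2, CENPE and CDK1 in the C4-2B lines, with deletion lines m, le5 and ld9 in orange left of control lines 1 to 3 in grey; points are libraries, lines are means and bars are 1 SD (n = 3). Lines le5 and ld9 are low in CDC45 and MCM5, control line 3 is at 21.8 to 23.0 TPM in CCNA2, and its library 1 stands alone in CDC45, MCM5 and CENPE.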

How the data were processed

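RNA-seq libraries came from stranded mRNA kits, per the labels' protocols. The submitters' processing notes name quality control and trimming with FastQC and Trimmomatic 0.35, alignment tools including STAR 2.5.2b, the quantifiers featureCounts 1.5.1 and RSEM 1.3.0, the test DESeq2 1.14.1 and the genome build GRCh37, without saying which tool made which table. The authors deposited TPM for 60252 gene IDs in 2 tables of 18 libraries, which were not compared with each other by any test. The authors' deposited tables give log2 fold changes, per the file headers from DESeq2, with p-values in raw and adjusted form, and shrinkage of the log2 values is not mentioned. Hi-C matrices were not used here.

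Genes were kept if the number of samples at 1 TPM or more reached the size of the smaller group, and were fitted with limma 3.58.1 in R 4.3.3 (two-sided, eBayes with a mean-variance trend) on log2(TPM + 1), each comparison on its own libraries, with p-values adjusted over all genes. The added 1 understates fold changes of low genes. All 44 members passed the filter in every comparison. Each C4-2B line entered its comparison as 1 replicate, the mean of 3 libraries, and F tests among lines used all 18. Scores are means of log2(TPM + 1) and got no p-value. TPM keeps no read depth, so depth is unknown and no counting interval was computed. No library copied another: any 2 of a table differed in at least 23993 genes.

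Arms came from the RefSeq gene table (GRCh38.p14, for gene order only), which gave a chromosome to 38908 of the IDs. Promoter motifs were counted in the first RefSeq promoter of each member and in all promoters of the table. Values by sample, or the lowest, median and highest in groups of over 5, are given for called members, up to the 6 with the lowest p in each direction (the 4 with the lowest p where none was called; lines may be given by their range), and for further genes chosen after their values were seen. Other lists name called genes, up to 6 in each direction. Members, lists and rules were chosen with earlier results of these data known. The fits were tested on simulated data. Alternatives were an added 0.1, median-ratio scaling, no filter, a replicate block, all RWPE-1 libraries in 1 fit, and leaving out each library or line. A fit without library 1 of C4-2B control line 3 was added after seeing the data.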

Additional observations from a re-analysis of the deposited data

Results flagged for a closer look

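Each of the 44 genes and both scores was examined for a library far from the others in the 7 RWPE-1 deletion libraries and the 5 editing controls, 92 groups of values in all, of which chance would flag about 1 in 20. Deletion library 4 stood apart in 3. MKI67 was at 130.43 TPM there, with the nearest other deletion library at 94.7 TPM and the lowest at 75.7 TPM. CDK1 was at 203.98 TPM, with the nearest at 123 TPM and the lowest at 101 TPM. KIF11 was at 78.98 TPM, with the nearest at 54.9 TPM and the lowest at 42.2 TPM. All 3 genes lie on 10q, whose other tested genes had a median deviation of 0.56 on the log2 scale in that library.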

How the results depend on the processing

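In the RWPE-1 deletion CDC6 and CDC45 stayed called under every alternative but the replicate block, with adjusted p-values of 0.00500 to 0.108 and 0.00321 to 0.116. Without the filter on low values 0 of the 44 genes were called lower, and in 1 fit of all RWPE-1 libraries 4 were called higher. Leaving out each library in turn gave 0 to 3 called lower. For HOXA13 overexpression the genes called numbered 1 without the filter, 131 in the fit of all RWPE-1 libraries and 1 to 5 with a library left out, with no member in any. For the C4-2B deletion the genes called numbered 6 without the filter, 24 with all libraries and the line as a random block and 0 to 7 with a line or library left out, with no member in any. For eGFP cells the members called higher numbered 2 to 4 with a library left out, and those called lower 21 to 30. Among C4-2B control lines median-ratio scaling left 14 members called, and among deletion lines leaving out a library gave 420 to 3177 genes and 1 to 18 members. The cause of these shifts was not tested.

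Library numbers shared between groups did not pair the libraries, since same-numbered RWPE-1 libraries correlated at -0.18 to 0.14 in the deletion and at -0.02 to 0.01 in the overexpression after group means were removed. With a replicate block the RWPE-1 deletion gave 449 genes, 0 members higher and 1 lower, the overexpression 1 gene, and the C4-2B deletion 10 genes with the line as a random block. For eGFP cells the block left 21 members lower and 3 higher, losing MCM3, MCM6, MCM7, PCNA, CCNE2, AURKA, BIRC5 and UBE2C, and the fit without the filter lost MCM7, AURKA, BIRC5 and UBE2C. Signs of members called in neither fit differed in 39 of 748 refits for the RWPE-1 deletion, 39 of 484 for HOXA13, 70 of 528 for C4-2B and 13 of 572 for eGFP. No called member reversed its sign. TPM without depth limits what can be said of low genes such as CCNE1.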

Other observations

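Levels in C4-2B and RWPE-1 stand in separately normalized tables and were not tested against each other. Side by side, CDK1 ranged over 238 to 416 TPM in C4-2B libraries and 66.1 to 204 TPM in RWPE-1 editing libraries, deletion and control together. CDC6 ranged over 72.2 to 121 TPM in C4-2B and 33.4 to 48.6 TPM in RWPE-1, and FOXM1 over 71.2 to 126 TPM in C4-2B and 28.0 to 47.7 TPM in RWPE-1. The ranges of these 3 genes did not overlap, and the share of all genes for which this held was not computed. Other genes lay the other way in the editing libraries. The kinesin KIF23 ranged over 23.2 to 36.8 TPM in C4-2B and 66.7 to 107 TPM in RWPE-1 editing libraries. The clamp PCNA ranged over 104 to 249 TPM in C4-2B and 300.0 to 394 TPM in RWPE-1 editing libraries. In the transfected RWPE-1 libraries KIF23 was at 28.9 to 41.6 TPM and PCNA at 222 to 281 TPM, and both overlapped C4-2B.

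The highest levels among S-phase genes in RWPE-1 editing libraries were those of PCNA and of MCM4, at 240 to 331 TPM, and CCNE1, at 1.93 to 7.27 TPM, was the lowest. Among G2/M genes CCNB1 reached 391 TPM and CDC20 354 TPM, and CDC25C, at 8.61 to 20.9 TPM, was the lowest.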
